A study of Mus musculus with 12 samples.

Results

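The glucocorticoid receptor gene Nr3c1 and 7 genes known to be induced through that receptor (Fkbp5, Tsc22d3, Sgk1, Zbtb16, Pdk4, Cebpd and Angptl4) were followed by their names in a table of 12975 genes, which held 8 of 8. The table gave counts of unique molecular identifiers (UMIs, tags that mark single captured RNA molecules) from ribosome pull-downs of mouse small intestine muscularis. It covered 12 libraries from 6 mice in 4 groups of 3. All animals carried PLPCreERT2 and Rpl22HA, in which tamoxifen-activated Cre, driven by a promoter active in glia, adds an HA tag to the ribosomal protein Rpl22. All received 2 injections of 100 µl tamoxifen at 15 mg/ml from 10 to 12 weeks of age and were killed 3 to 4 weeks after the first. One set of mice was naive (T0) and the other was killed 3 h after intestinal manipulation (T3), a laparotomy under ketamine and xylazine in which the bowel was handled. The methods describe the T0 animals only as naive, so anaesthesia, opening of the abdomen, handling and elapsed time cannot be told apart. The homogenate of each mouse was split between a pull-down with an antibody to HA and one with control IgG. These gave the groups HA T0, HA T3, IgG T0 and IgG T3.

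Glucocorticoids are the adrenal steroid hormones of the stress response. They bind a receptor that is held in the cytoplasm by chaperones such as Hsp90. The bound receptor enters the nucleus, attaches to DNA at a palindrome of a pair of 6-base arms and switches on a set of genes that differs between tissues. Several induced genes restrain inflammation, some adjust fuel use, and others, such as Fkbp5, feed back on the receptor. Many also respond to other signals, among them fasting, hypoxia and cytokines.

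The depth of the libraries set how well each group could be read. Total counts ran from 1221788 to 2870591 in the HA libraries, from 388214 to 1289833 in IgG T0 and from 88136 to 248522 in IgG T3. A level of 3 counts, taken as the floor, therefore stood at 1.05 CPM (counts for each 1000000 counts of the library) in the deepest library and at 34.0 CPM in the shallowest. The floors cover counting error only. Glial transcripts (13 genes measured, among them Sox10, S100b and Gfap) summed to 3941 to 5503 CPM in the HA libraries and 234 to 1532 CPM in the IgG libraries, and Cdh19 was at 0 in every IgG library. Transcripts of interstitial cells of Cajal (Kit, Ano1 and 3 others) were also higher with HA at T0, for 4 of 5 genes tested. Smooth muscle transcripts still summed to 13666 to 26203 CPM in the HA libraries. A level in the HA pull-down is thus a sum over tagged and carried-over material, and fewer cells of a type and less RNA per cell cannot be told apart.

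RefSeq windows from 250 bases before to 50 after a transcript start (GRCm38.p6) were at hand for 4 of the 8 genes, 11 windows in all. They are shown for Sgk1 and Tsc22d3 because these genes, known from other tissues as direct receptor targets, moved differently in these data. Whether the windows bear on that difference was not tested. Of the 6 Sgk1 windows, the one at chr10:21993640-21993939 on the plus strand held the full receptor palindrome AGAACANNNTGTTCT, searched on both strands. It lay 189 to 175 bases before the start. Capitals mark the palindrome and each single arm TGTTCT on either strand, arms within the palindrome included. Of the 3 Tsc22d3 windows, the one at chrX:140600473-140600772 on the minus strand held a single arm, 185 to 180 bases before the start.
Sgk1: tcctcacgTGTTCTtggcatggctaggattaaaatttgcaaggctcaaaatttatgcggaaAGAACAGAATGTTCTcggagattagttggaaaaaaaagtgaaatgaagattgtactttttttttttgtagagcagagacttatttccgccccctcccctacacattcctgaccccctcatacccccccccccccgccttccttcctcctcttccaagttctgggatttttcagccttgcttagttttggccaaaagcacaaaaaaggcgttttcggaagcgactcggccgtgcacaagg
Tsc22d3: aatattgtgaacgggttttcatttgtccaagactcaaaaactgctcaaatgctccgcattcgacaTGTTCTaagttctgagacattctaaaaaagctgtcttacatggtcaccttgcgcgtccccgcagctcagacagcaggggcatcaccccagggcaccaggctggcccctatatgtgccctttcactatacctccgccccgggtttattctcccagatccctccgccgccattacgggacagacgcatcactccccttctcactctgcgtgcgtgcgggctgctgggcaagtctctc

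The full palindrome stood in 3 of 32851 such windows (0.00913%) and in 1 of the 11 windows of these genes. A looser form that contains it, GNACANNNTGTNC, stood in 156 (0.475%), and among the 11 windows matched the same Sgk1 site alone. The single arm, which overlaps both, was common: it stood in 6233 windows (19%) and in 4 of the 11, namely 3 of Sgk1 and 1 of Tsc22d3. The letters AGGTCANAGGTCA, a repeat bound by peroxisome proliferator-activated receptors (PPARs), stood in 13 windows (0.0396%) and in 0 of the 11. The single windows of Fkbp5 and Pdk4 held none of these letters. The counts come from transcript 3′ ends and do not say which start was used. Sequence outside the windows was not searched, so a window without a match does not show that a gene lacks a receptor site.

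The first comparison asked how ribosome-bound RNA of these genes differed between naive and manipulated animals in the HA pull-down. At T3 the HA libraries held more Fkbp5, Sgk1, Zbtb16, Cebpd and Angptl4 and less Nr3c1. Tsc22d3 and Pdk4 were not called. So 5 of the 8 genes tested were called higher and 1 lower. Of all 9441 genes tested, 18.7% were called higher, 15.1% lower and 33.8% in either direction. The median log2 fold change of the 8 genes was 1.78, also with Cebpd set at its lower bound, and that of all genes tested was -0.02. Scaling by total counts in place of TMM moved the median of all genes to -0.29 and the share of higher calls among all calls from 55.4% to 31.1%, while 5 of the 8 genes were still called higher and 1 lower. The test throughout is edgeR's quasi-likelihood F-test, with Benjamini-Hochberg adjustment over all genes tested and standard errors (SE) of the log2 fold change.

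**Figure D1:**
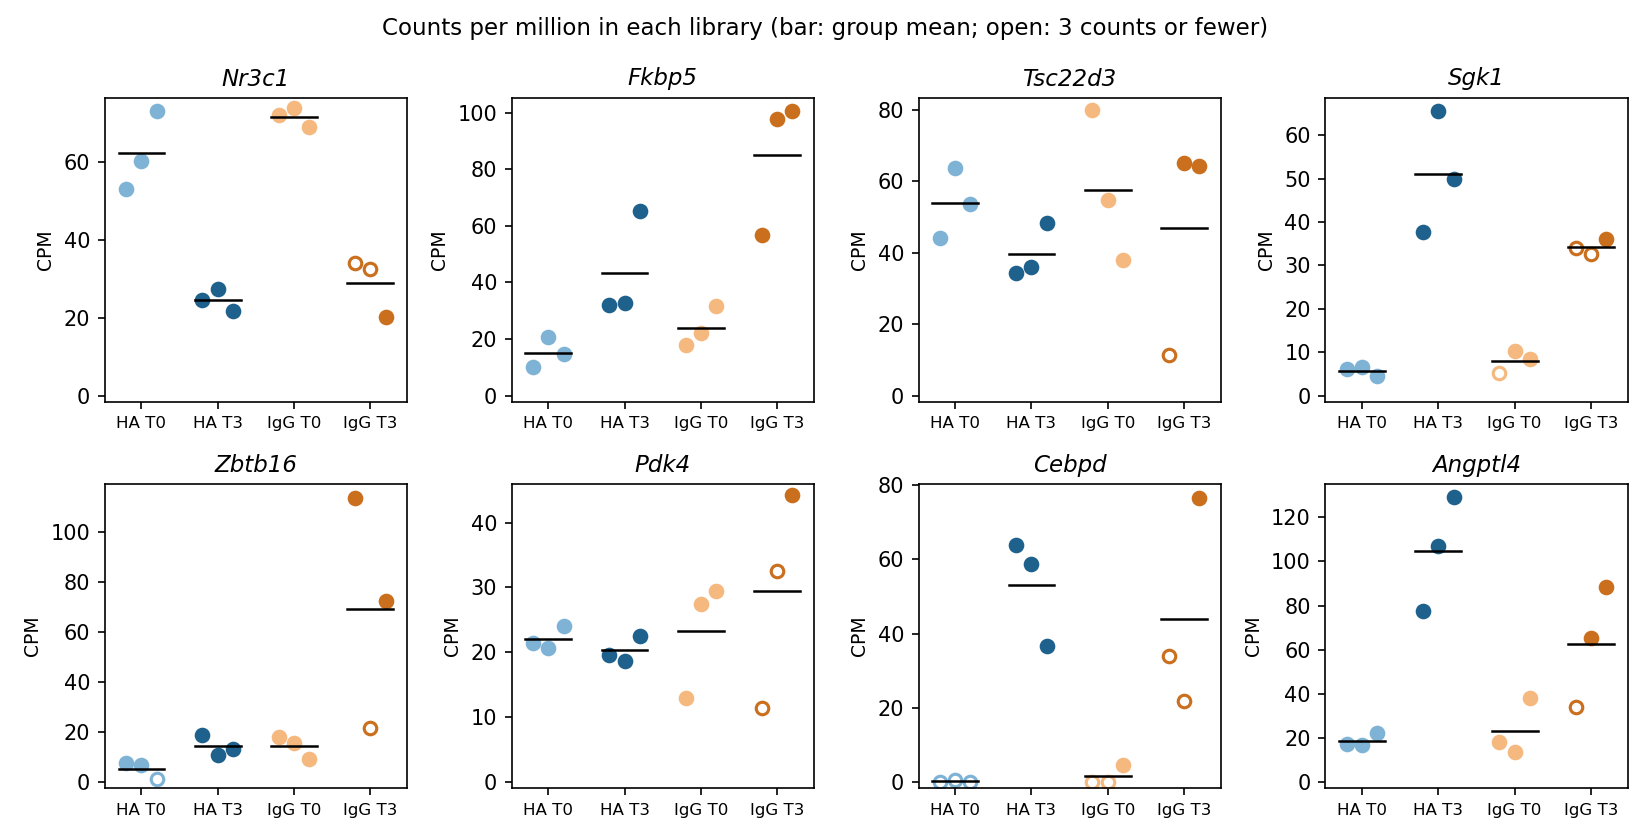
CPM (y axis of each panel, its own linear scale from 0) of the 8 genes in each of the 12 libraries, by group, with a bar at the group mean and open points for libraries with 3 counts or fewer. Sgk1, Cebpd and Angptl4 in HA T3 lie above every HA T0 library, Nr3c1 lies lower at T3 in both pull-downs, and the IgG T3 points are few and often open.

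Nr3c1 encodes the receptor itself (Gencode M21, mm10, chr18:39410545-39519421, minus strand). Its level was 53.0, 60.3 and 73.2 CPM in HA T0 and 24.6, 27.4 and 21.8 CPM in HA T3. Every T3 library lay below every T0 library. This was a log2 fold change of -1.06 (SE 0.22, n = 3 against 3, edgeR adjusted p = 0.0011). Of all genes tested, 35.2% had HA T3 levels wholly below HA T0 and 15.6% wholly above. Across the 4 groups the order of means was IgG T0, HA T0, IgG T3 and HA T3, at 71.6 ± 2.39, 62.2 ± 10.2, 28.9 ± 7.66 and 24.6 ± 2.81 CPM (SD, n = 3). Within a time point the pull-downs overlapped in range, and between the times they did not. The IgG T3 values came from only 3, 3 and 5 counts, and the mean floor there was 26.2 CPM.

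Fkbp5 encodes a co-chaperone of Hsp90 that lowers the receptor's affinity for hormone, and is widely used as a readout of receptor activity (chr17:28399094-28517527). Its 3 HA T0 libraries held 9.98, 20.7 and 14.6 CPM, against 31.9, 32.8 and 65.4 CPM in HA T3. The groups did not overlap, and animal 4 stood apart at the top of HA T3. The log2 fold change was 1.81 (SE 0.33, edgeR adjusted p = 0.00038). Over the groups the means rose from HA T0 (15.1 ± 5.36 CPM) through IgG T0 (24.0 ± 7.04) and HA T3 (43.4 ± 19.1) to IgG T3 (85.04 ± 24.6). HA T0 overlapped IgG T0, and HA T3 overlapped IgG T3.

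Tsc22d3 encodes GILZ, a leucine zipper protein through which glucocorticoids restrain inflammatory transcription (chrX:140539528-140600659). Levels were 44.2, 63.7 and 53.6 CPM in HA T0 and 34.4, 36.1 and 48.3 CPM in HA T3. With the groups overlapping, the log2 fold change was -0.17 (SE 0.23, 95% interval -0.64 to 0.30, edgeR adjusted p = 0.594). Tsc22d3 was therefore not called, and its upper bound lies below the lower bounds of Sgk1 (2.78) and Angptl4 (2.25).

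Sgk1 encodes a kinase that glucocorticoids and mineralocorticoids induce and that regulates ion channels and cell survival (chr10:21882184-21999903, plus strand). HA T0 held 6.14, 6.70 and 4.53 CPM, and HA T3 held 37.6, 65.5 and 49.8 CPM. The lowest T3 library was far above the highest T0 library. On the log2 scale it rose by 3.42 (SE 0.31, edgeR adjusted p = 2.9e-08). Its smallest value over the 13 alternative settings was 3.15.

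Among the transcription factors, Zbtb16 encodes PLZF, a zinc finger repressor (chr9:48654297-48836222). Its counts were low: 20, 12 and 3 in HA T0 and 23, 16 and 17 in HA T3, or 7.68, 6.70 and 1.05 CPM against 18.8, 10.7 and 13.2 CPM. T3 lay above T0 without overlap. The log2 fold change was 1.75 (SE 0.52, edgeR adjusted p = 0.0175). This call rested on single libraries: the edgeR adjusted p was 0.0745 without HA T3 replicate 1 and 0.0575 without HA T3 replicate 4.

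Cebpd encodes C/EBPδ, a leucine zipper factor of the acute phase response and of early adipocyte differentiation (chr16:15887286-15891031, plus strand). HA T0 held 0, 1 and 0 counts, all under the floor. HA T3 held 78, 88 and 47 counts, or 63.8, 58.8 and 36.6 CPM. The HA T3 mean of 53.1 ± 14.5 CPM was at least 41.1-fold higher than the mean HA T0 floor of 1.29 CPM (edgeR adjusted p = 2.5e-10). Cebpd's 3′ end overlaps Spidr, a DNA repair gene on the opposite strand, and the use of strand in counting was not stated. Spidr, named after its values were seen, held 39, 21 and 42 counts in HA T0 and 70, 135 and 108 in HA T3, a log2 fold change of 2.74 (SE 0.25, edgeR adjusted p = 3.2e-08). In the IgG libraries Spidr had 3 counts at most, including the IgG T3 library in which Cebpd had 19. No 3′ end of the other 7 genes overlapped another gene of Gencode M21, which is not the Gencode version the counts were made on.

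The remaining pair act in fuel use. Pdk4 encodes a kinase that switches off pyruvate dehydrogenase and spares glucose (chr6:5483351-5496309). It stood at 21.5, 20.7 and 24.0 CPM in HA T0 and 19.6, 18.7 and 22.6 CPM in HA T3. The groups overlapped and the log2 fold change was 0.14 (SE 0.26, 95% interval -0.40 to 0.69, edgeR adjusted p = 0.706). Its sign followed the scaling: with total counts, the scale of the CPM, it was -0.13. Angptl4 encodes a secreted inhibitor of lipoprotein lipase (chr17:33773750-33781830). It stood at 17.3, 16.8 and 22.3 CPM in HA T0 and 77.8, 107.0 and 129.2 CPM in HA T3. Its log2 fold change was 2.74 (SE 0.23, edgeR adjusted p = 1.5e-08), and the groups did not overlap.

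Transcripts of other cells moved between the times too. Of 8 neutrophil and monocyte markers, 3 were in the table (S100a8, S100a9 and Ccr2), and their sum was 1.39 to 5.59 CPM in HA T0 and 18.1 to 116.2 CPM in HA T3. In the IgG libraries it was 8.53 to 17.1 CPM at T0, where S100a8 and S100a9 were at 0, and 21.7 to 249.6 CPM at T3. The low end at T3 came from 1 count each of S100a8 and S100a9, and the highest T3 sums of both pull-downs were of animal 1. Only S100a8 and S100a9 rose. Ccr2 stood at 1.05 to 5.03 CPM in HA T0 and 0 to 3.89 CPM in HA T3. With IgG it stood at 8.53 to 17.1 CPM at T0 and 0 to 11.3 CPM at T3. Mesothelial markers summed to 152 to 192 CPM in HA T0 and to 14.0 to 21.3 CPM in HA T3, and 5 of 5 tested were lower. Fibroblast markers summed to 1061 to 1399 CPM and then 315 to 552 CPM, with 5 of 7 lower. Among neuronal markers 5 of 12 were higher and 0 lower. Called lower were 4 of 11 smooth muscle markers, 2 of 5 of interstitial cells of Cajal, 2 of 5 of macrophages and 2 of 7 of epithelium, with 0 higher. Of 2 endothelial markers tested 0 were called. Over all 9441 genes tested in HA, 18.7% were called higher and 15.1% lower, so several of these small counts are near the general share. Adipocyte markers, of a cell type rich in Angptl4, Pdk4 and Cebpd, summed to 294 to 678 CPM in HA T0 and 135 to 379 CPM in HA T3, with 0 of 4 called. Their part in the changes of the 8 genes was not tested.

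The IgG pull-down gave the same time comparison for RNA captured without the tag. Here Fkbp5 was the 1 gene called, higher, of 5 that passed the filter on low counts. Of all 5219 genes tested, 4.43% were called higher, 1.03% lower and 5.46% in either direction. The unadjusted p was under 0.05 for 4 of the 5 and for 21.1% of all genes tested, and DESeq2 called 1. Fkbp5 held 18.0, 22.3 and 31.8 CPM in IgG T0 and 56.7, 97.8 and 100.6 CPM in IgG T3, from 5, 9 and 25 counts. T3 lay above T0 without overlap, and the log2 fold change was 1.78 (SE 0.43, edgeR adjusted p = 0.0280). The adjusted p ran from 0.0168 to 0.188 over 14 alternatives, and the call was lost in 6.

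The other 4 genes tested with IgG did not pass. Sgk1 stood at 5.15, 10.3 and 8.53 CPM in IgG T0 and 34.0, 32.6 and 36.2 CPM in IgG T3 (log2 fold change 2.02, SE 0.56, edgeR adjusted p = 0.0506). Its T3 values lay above T0, as for 13.4% of all genes tested, but came from 3, 3 and 9 counts. Nr3c1 stood at 72.1, 73.7 and 69.0 CPM in IgG T0 and 34.0, 32.6 and 20.1 CPM in IgG T3, again from few counts (3, 3 and 5), with a log2 fold change of -1.43 (SE 0.45, edgeR adjusted p = 0.0890). Its T3 values lay below T0, as for 12.6% of genes. For Angptl4 the groups overlapped at 13.7 to 38.0 CPM and 34.0 to 88.5 CPM, the latter from 3, 6 and 22 counts (log2 fold change 1.41, SE 0.52, edgeR adjusted p = 0.134). For Tsc22d3 they overlapped widely, at 38.0 to 79.9 CPM and 11.3 to 65.2 CPM, the latter from 1, 6 and 16 counts (-0.12, SE 0.52, edgeR adjusted p = 0.925).

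Zbtb16, Pdk4 and Cebpd fell under the filter with IgG. Zbtb16 held 7, 9 and 12 counts in IgG T0 and 10, 2 and 18 in IgG T3, or 9.30 to 18.0 CPM and 21.7 to 113.5 CPM. Cebpd held 0, 0 and 6 counts, then 3, 2 and 19. With no filter, 12885 genes were tested and 519 called, and Zbtb16 (2.23, edgeR adjusted p = 0.0054) and Cebpd (4.12, edgeR adjusted p = 8.95e-06) were called higher on fitted log2 fold changes that depend on the prior count. Pdk4, at 12.9 to 29.5 CPM and 11.3 to 44.3 CPM, was not (0.33, edgeR adjusted p = 0.846). Fitted with all 12 libraries, which share 1 estimate of spread, 5 of the 8 genes were called with IgG: 4 higher, and Nr3c1 lower at -1.52 (edgeR adjusted p = 0.0218). That fit called 6.84% of 10314 genes, 4.31% higher and 2.52% lower.

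**Figure D2:**
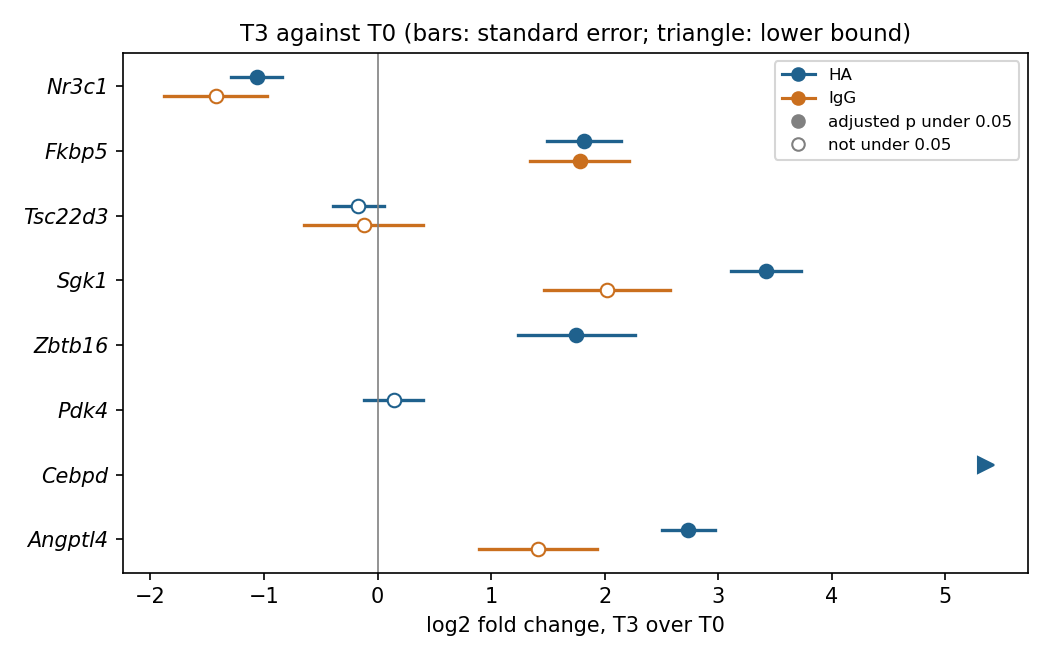
Log2 fold change of T3 over T0 (x axis) for the 8 genes (y axis) in the HA (blue) and IgG (orange) pull-downs, with SE bars, filled points where the edgeR adjusted p was under 0.05, and Cebpd in HA as a triangle at its lower bound of 41.1-fold. No IgG point is drawn for Zbtb16, Pdk4 and Cebpd, which did not pass the filter there; Fkbp5 lies at 1.81 and 1.78 in the pull-downs.

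Whether the time change differed between the pull-downs was tested as an interaction over all 12 libraries. None of the 8 genes passed, and of 10314 genes tested 0.330% were called, 0.301% for a positive and 0.0291% for a negative difference. The unadjusted p was under 0.05 for 3 of the 8 and for 10.5% of all genes, and DESeq2 called 0. These 3 had positive differences, HA less IgG: Sgk1 of 1.44 (SE 0.62, edgeR adjusted p = 0.408), Angptl4 of 1.40 (SE 0.53, edgeR adjusted p = 0.339) and Cebpd of 3.76 (SE 1.26, edgeR adjusted p = 0.256). The value for Cebpd is a fitted one on groups at or near the floor, and it rested on the 6 counts of a single library: without IgG T0 replicate 4 it was -0.85. For Fkbp5 the difference was 0.11 with a 95% interval of -0.99 to 1.20, and for Nr3c1 it was 0.47 (-0.55 to 1.49). For Tsc22d3 it was -0.01, for Pdk4 -0.22 and for Zbtb16 -0.56. The median over all genes was 0.18. The intervals are wide, and equal changes were not shown.

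The comparison of HA with IgG in the same mice asked which of these genes the tag enriched. At T0, 0 of 7 genes tested were called in either direction, against 30.3% of all 9823 genes, 16.0% higher in HA and 14.4% lower. By unadjusted p 2 of the 7 were under 0.05, as were 41.6% of all genes tested, and DESeq2 called 0. The log2 fold change was negative for 7 of 7, with a median of -0.46 against -0.02 for all genes tested. The sign was not stable for 3 of them: without IgG T0 replicate 4, Angptl4 was at 0.27 and Pdk4 at 0.07, and Tsc22d3 reached 0.25 without IgG T0 replicate 1. With all libraries the log2 fold change ran from -1.41 (SE 0.63, edgeR adjusted p = 0.108) for Zbtb16 and -0.79 (SE 0.37, edgeR adjusted p = 0.117) for Fkbp5 to -0.06 for Tsc22d3. Nr3c1 lay at -0.23 with a 95% interval of -0.71 to 0.25. By contrast 11 of 12 glial markers tested were higher with HA. With the animal as a block, Zbtb16 was called lower in HA at T0 (-1.70, edgeR adjusted p = 0.0089). Cebpd was not tested at T0.

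At T3, Zbtb16 was the 1 gene called of 8 tested, against 21.9% of all 7200 genes called in either direction and 10.2% called lower in HA (11.8% higher). It held 10.7 to 18.8 CPM in HA T3 and 21.7 to 113.5 CPM in IgG T3, the latter from 10, 2 and 18 counts. HA lay wholly below IgG, as for 16.4% of all genes tested. The log2 fold change was -2.21 (SE 0.48, edgeR adjusted p = 0.0029). Without IgG T3 replicate 4, the deepest of its group, the call was lost (-1.97, edgeR adjusted p = 0.0570). Fkbp5 was at -0.96 (SE 0.40, edgeR adjusted p = 0.0984), and passed when HA T3 replicate 4 was left out (-1.38, edgeR adjusted p = 0.0379). Sgk1 (0.63, edgeR adjusted p = 0.340) and Angptl4 (0.67, edgeR adjusted p = 0.217) had positive values. Sgk1 in HA, at 37.6 to 65.5 CPM, lay above IgG at 32.6 to 36.2 CPM, as for 19.4% of genes. Those IgG values came from 3, 3 and 9 counts, where 3 is the floor. Cebpd (0.08), Nr3c1 (-0.01), Tsc22d3 (-0.31) and Pdk4 (-0.67) did not pass.

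Mouse by mouse, HA lay below IgG in 6 of 6 animals for Fkbp5 and for Zbtb16. Their IgG T3 values came from 2 to 25 counts. The share of all genes with this pattern was not computed, so it is not read as a trait of these genes. Of all genes tested, HA lay wholly below IgG for 20.1% at T0 and for 16.4% at T3. For Sgk1 and Angptl4, HA lay below IgG in 2 of 3 animals at T0 and in 0 of 3 at T3. The IgG T3 values of this pair came from 3 to 22 counts. Nr3c1 and Pdk4 were lower with HA in 4 of 6 and Tsc22d3 in 3 of 6. Cebpd was lower with HA in 2 of 6, and at 0 in both pull-downs of T0 animal 1.

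**Figure D3:**
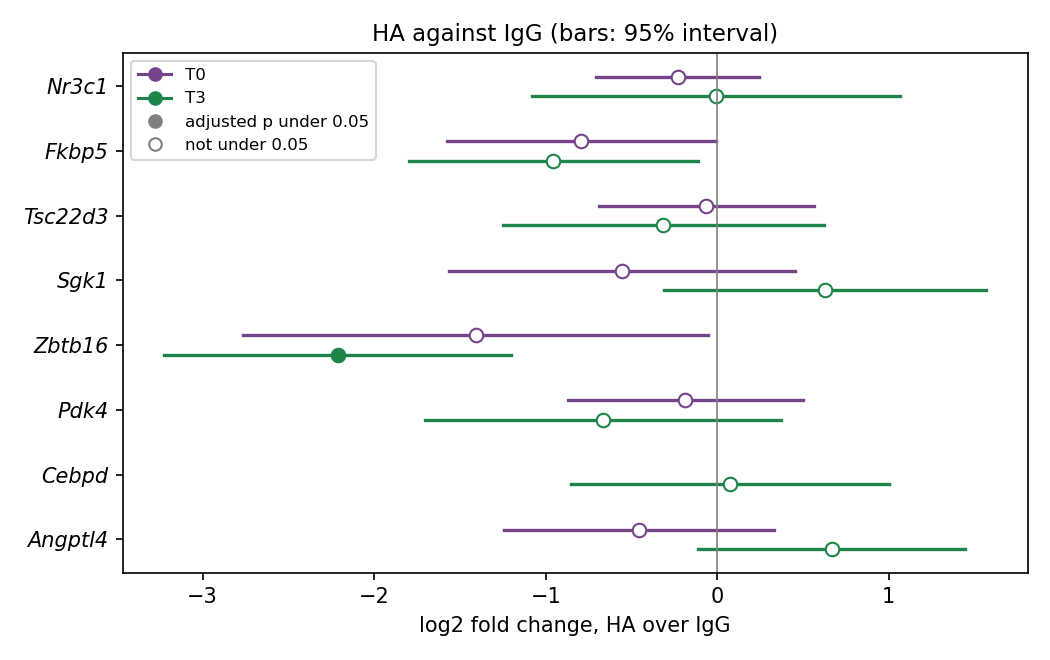
Log2 fold change of HA over IgG (x axis) with its 95% interval for the 8 genes (y axis) at T0 (purple) and T3 (green), filled where the edgeR adjusted p was under 0.05. The only filled point is Zbtb16 at T3, at -2.21, and the 7 values at T0 all lie left of 0; Cebpd was not tested at T0.

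Genes that act on the receptor were read from a list of 15, of which 13 were in the table. In HA, 12 were tested, 5 were called higher at T3 and 0 lower, with a median log2 fold change of 0.09. The chaperones Hsp90aa1 (1.80, SE 0.40, edgeR adjusted p = 0.0048) and Hsp90ab1 (1.17, SE 0.18, edgeR adjusted p = 5.3e-05) rose. Hsp90ab1 went from 889 ± 123.7 CPM in HA T0 to 1675 ± 229 CPM in HA T3. Hsd11b1, the enzyme that regenerates active hormone, was at 2.76 ± 0.06 CPM in HA T0 and between 0 and 7.36 CPM in HA T3, and was not tested. With IgG 8 were tested, 1 was called higher and 0 lower. For this and the next lists, the shares of all genes tested in HA were 18.7% higher and 15.1% lower. With IgG those shares were 4.43% and 1.03%. The listed genes of the mineralocorticoid receptor (Nr3c2) and the hormone-inactivating enzyme (Hsd11b2) were not in the table and could not be read.

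The next pair of lists held other genes that glucocorticoids induce. The first held genes that many other stimuli also induce, and 13 of the 14 tested were higher in HA T3 and 0 lower, with a median of 3.48. The metallothioneins Mt1 and Mt2, which bind zinc and copper, rose by 5.23 (SE 0.21, edgeR adjusted p = 2.6e-13) and 6.74 (SE 0.28, edgeR adjusted p = 8.2e-13). In CPM, Mt1 went from 660 ± 52.6 to 20614 ± 1344 and Mt2 from 295 ± 99.7 to 26468 ± 1662 (SD, n = 3). The cell cycle inhibitor Cdkn1a rose by 4.37 (SE 0.20, edgeR adjusted p = 1.0e-12), from 60.9 ± 6.98 to 1048 ± 69.6 CPM. With IgG, 9 of 11 tested were higher and 0 lower, with a median of 3.16. The exception in HA was Anxa1, named after its value was seen, at -0.65 (edgeR adjusted p = 0.0742).

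The second list held genes with fewer known inducers. Of 11 tested, 7 were higher in HA T3 and 1 lower, with a median of 1.30. Klf9, a zinc finger factor and common readout of receptor activity, rose by 2.05 (SE 0.21, edgeR adjusted p = 2.7e-07), from 110.9 ± 14.9 to 385 ± 111.8 CPM. Fam107a, an actin-binding stress gene, rose by 1.53 (SE 0.17, edgeR adjusted p = 8.3e-07), from 214.7 ± 9.12 to 514 ± 65.4 CPM, and the kinase gene Map3k6 by 3.68 (SE 0.41, edgeR adjusted p = 1.7e-05). Sesn1 fell by 0.58 on the log2 scale (SE 0.21, edgeR adjusted p = 0.0358), a call lost in 7 of 13 alternatives. With IgG, 3 of 9 tested were higher and 0 lower, with a median of 0.80. In naive mice the tag enriched Fam107a over IgG by a log2 fold change of 3.66 (SE 0.28, edgeR adjusted p = 6.3e-07). Fam107a also rose with IgG, by 2.62 (SE 0.48, edgeR adjusted p = 0.0037). Its interaction, HA less IgG, was -1.03 (SE 0.44, edgeR adjusted p = 0.403).

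Family relatives of the 8 genes gave a mixed picture in HA, with 4 of 10 tested higher, 2 lower and a median of 0.26. Cebpb and Cebpa, which encode partners of C/EBPδ, rose by 3.30 (SE 0.20, edgeR adjusted p = 1.2e-10) and 1.50 (SE 0.30, edgeR adjusted p = 0.00063). Tsc22d4, a relative of Tsc22d3, rose by 0.98 (SE 0.16, edgeR adjusted p = 0.00011). Angptl1 fell by 1.25 (SE 0.26, edgeR adjusted p = 0.0010) and Angptl2 by 0.66 (SE 0.18, edgeR adjusted p = 0.0067) on the log2 scale, while Angptl4 rose. With IgG 1 of 8 was higher, Cebpb. The lists are not independent: Cebpb is also in the widely induced list and Fkbp4 also in the list of genes that act on the receptor.

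Because Pdk4 and Angptl4 also answer to PPARs and fasting, genes of fat oxidation were listed as well. In HA 2 of 12 tested were higher and 2 lower, with a median of -0.05, and with IgG 0 of 10 were called. Ppard, a PPAR, rose by 1.95 (SE 0.19, edgeR adjusted p = 7.2e-08) and the lipid droplet gene Plin2 by 1.55 (SE 0.19, edgeR adjusted p = 2.0e-06). Cpt1a, whose enzyme admits fatty acids to mitochondria, fell by 0.71 (SE 0.26, edgeR adjusted p = 0.0410) on the log2 scale, a call lost in 5 of 13 alternatives. No gene of these 5 lists passed the interaction without a block. With the animal as a block, 1 gene that acts on the receptor (Hsp90aa1, a difference of 2.18, edgeR adjusted p = 0.0058), 2 widely induced genes and 1 with fewer inducers passed. Over all 10314 genes the fit with the block called 158, against 34 without it.

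Against IgG at T0, 0 of 12 genes that act on the receptor were higher in HA and 4 lower. The counts higher and lower were 3 and 1 of 13 for the widely induced genes, 2 and 3 of 12 for those with fewer inducers, 2 and 3 of 10 for the relatives and 2 and 3 of 14 for the fat oxidation genes. At T3 they were 0 and 2 of 10, 3 and 2 of 14, 3 and 3 of 11, 1 and 1 of 8 and 2 and 0 of 11 in the same order. Over all genes tested, 16.0% were called higher in HA and 14.4% lower at T0, and 11.8% and 10.2% at T3. Many of these counts lie near those shares.

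**Figure D4:**
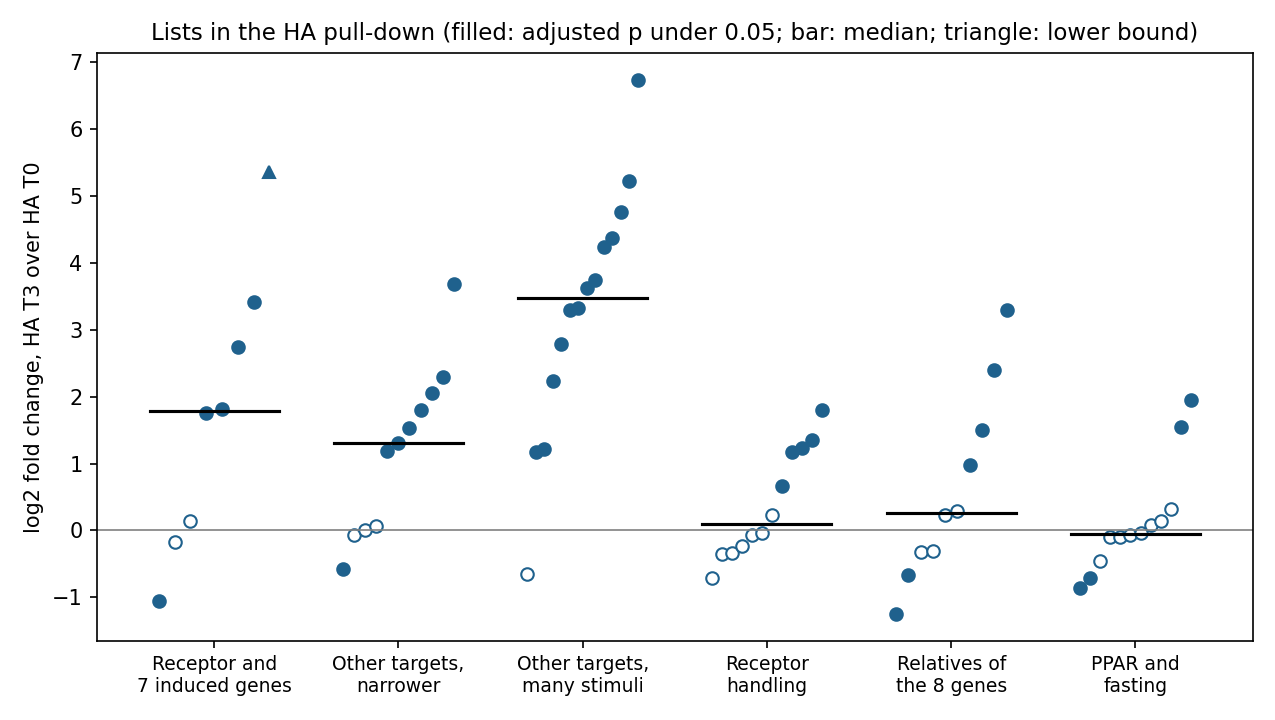
Log2 fold change of HA T3 over HA T0 (y axis) for each tested gene of the 8 and of the 5 lists (x axis), filled where the edgeR adjusted p was under 0.05, with a bar at each median and Cebpd as a triangle at its lower bound. Medians were 1.78 for the 8 genes, 1.30 and 3.48 for the narrowly and widely induced lists, 0.09 for genes that act on the receptor, 0.26 for relatives and -0.05 for fat oxidation genes. Cebpb and Fkbp4 each belong to a pair of lists and are drawn in each.

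The 8 genes were also compared by their levels over the 12 libraries, as log2 CPM. These correlations are descriptions over libraries that share animals and differ in depth, time and antibody, and they carry no p. Sgk1 and Cebpd went together most (Pearson r = 0.95), followed by Cebpd and Angptl4 (0.91) and Sgk1 and Angptl4 (0.90). Nr3c1 ran against Cebpd (-0.92), Sgk1 (-0.88) and Fkbp5 (-0.85). Tsc22d3 and Fkbp5 had an r of -0.10, and Tsc22d3 and Pdk4 one of 0.53.

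Among 10314 genes, those most like Sgk1 were Lmna, of the nuclear lamina, and the AP-1 subunit gene Fosl1 (both 0.98). For Cebpd they were Btg2 (0.97) and Zfp36 (0.96), both early response genes. Among those most like Angptl4 was Mat2a (0.94), a gene of methionine metabolism. Fkbp5 was most like Mir22hg (0.95) and Tmem179 (0.94). Zbtb16 was most like Glul, the glutamine synthetase gene, and the transferrin receptor gene Tfrc (both 0.92). Nr3c1 was most like Chek2 and Ntpcr (both 0.97), Tsc22d3 most like Phf10 and Tkfc (both 0.95), and Pdk4 most like Hexim1 and Acbd4 (both 0.94).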

How the data were processed

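Bulk 3′ RNA-seq (MARS-seq) was made from HA and IgG pull-downs. Per the labels and methods, the authors trimmed reads with cutadapt, aligned them with STAR 2.4.2a to mm10, counted UMIs on gene 3′ ends (1000 bases upstream to 100 downstream, Gencode annotation) with HTSeq, used DESeq2 1.26.0 and kept genes with at least 5 reads. Of the 12975 genes deposited, 189 have no count of 5 or more. The deposited values are raw UMI counts, identical in the series table and sample files.

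Counts were tested as deposited in R 4.3.3 with edgeR 4.0.16 (limma 3.58.1): filterByExpr, TMM scaling, robust quasi-likelihood F-test, two-sided, Benjamini-Hochberg threshold 0.05, checked on simulated data. Pairwise contrasts used 6 libraries, the interaction 12. CPM is counts over the library total. SEs were taken from F. Alternatives were RLE scaling, total counts, other filters, DESeq2 1.42.0, a replicate block, a fit of all 12 libraries and leaving out libraries. The 2 IgG T3 libraries under 100000 counts were left out as an alternative chosen after seeing the data. All 8 genes were named. From each list, the 3 smallest p in each direction in HA that passed were named, and for each of the 8 the 2 genes most like it; a few genes that this rule names are not reported here. The genes and lists were chosen with earlier results of these data known, and the motifs after the files were seen.

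HA and IgG libraries of 1 mouse come from 1 homogenate (correlation of deviations 0.0887 to 0.273). The same number at T0 and T3 names different mice. Replicates are separate mice, and all differed beyond sampling noise.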

Additional observations from a re-analysis of the deposited data

How the results depend on the processing

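In HA, the T3 against T0 calls of Nr3c1, Fkbp5, Sgk1, Cebpd and Angptl4 held in 13 of 13 alternatives. With IgG, 285 genes were called: 519 with no filter, 705 of 10314 in the fit of all 12 libraries and 162 to 334 on leaving out 1 library (162 without IgG T0 replicate 2, 167 without IgG T0 replicate 4, 181 without IgG T3 replicate 4). Of the 8 genes 1 was called there. It was 3 with no filter, with a minimum of 5 counts in 1 library, or without both shallow IgG T3 libraries; 5 in the fit of all 12 libraries; 0 with the replicate block; and 0 to 2 on leaving out 1 library (0 without IgG T0 replicate 2 or 4 or IgG T3 replicate 4, 2 without IgG T3 replicate 3). For HA against IgG at T0, 0 of the 8 became 1 with the animal as replicate block (Zbtb16) and 1 in the fit of all 12 libraries (Cebpd, not tested with 6 libraries and at 0 or 1 count in HA T0). The fit of all 12 libraries called 28.8% of 10314 genes there, 15.1% higher in HA and 13.7% lower. At T3, 1578 genes became 849 to 1977 on leaving out 1 library (971, 1019 and 849 without HA T3 replicates 1, 3 and 4, 958 without IgG T3 replicate 4), and 1 of the 8 became 0 without IgG T3 replicate 4 and 2 without HA T3 replicate 4. The interaction called 34 genes, 20 with RLE scaling, 8 with total counts, 80 with DESeq2, 158 with the replicate block, 6 without both shallow IgG T3 libraries and 5 to 95 on leaving out 1 library (5 without HA T3 replicate 4, 95 without IgG T3 replicate 4), with 0 of the 8 throughout. The block changed no other call of the 8. Where T0 and T3 share a number they share only that number (correlation of deviations 0.0111 to 0.169). Apart from the smaller number of libraries or genes tested, the cause of these shifts was not tested.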
